A study of Mus musculus with 42 samples.

Results

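A set of genes of lipoprotein assembly was followed through 42 mouse RNA-seq libraries: Apob, Mttp, Apoa1, Apoa2, Apoa4, Apoa5, Apoc1, Apoc3, Apoe, and Apoh, 10 of the 54532 genes in the count table, chosen by name and found once each. Apolipoproteins are the protein coat of the particles that carry triacylglycerols and cholesterol in blood. Hepatocytes load lipid onto apolipoprotein B in the endoplasmic reticulum, with the help of the microsomal transfer protein, and secrete the product as very low density lipoprotein (VLDL). Other apolipoproteins are secreted separately, move between particles, form the scaffold of high density lipoprotein (HDL), and guide particles to lipases and receptors.

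The mice were female C57BL/6 (C57BL/6NHsd in the study's methods), weaned at 3 weeks of age and kept for 3 weeks on 1 of 2 diets. In the AIN93G diet, soybean oil supplied 16% of the energy, and in the high-fat diet (HFD) it supplied 45%. Poly(A) RNA of tissue labelled liver was sequenced from 3 mice per diet every 4 hours from zeitgeber time (ZT) 0 to ZT 24, where ZT counts hours from lights on. Both diets were eaten freely. Each library is taken as 1 mouse, and p-values measure the spread between these libraries.

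Libraries that stand apart are described first. By the limit that chose them, 32 libraries had over 10000 CPM (gene counts relative to the library total) of Alb, the hepatocyte gene for albumin, and are called liver here, while 10 had at most 81.0 CPM. All later CPM values carry an additional scaling factor per library (TMM). These low libraries were the 6 of the AIN93G diet from ZT 16 or ZT 20, together with 2 of 3 per diet from ZT 24. Adipoq, the adipocyte gene for adiponectin, lay between 884 and 1997 CPM in them and at most at 5.59 CPM in liver, so they are called adipocyte-rich. The 30 listed hepatocyte markers held 14.8% to 19.3% of counts in liver and 0.0808% to 0.428% in the adipocyte-rich libraries. In the latter their levels summed to a median of 2152 CPM, and most came from Pck1 and Cyp2e1 (means, 1148 and 597 CPM). At ZT 16 and ZT 20 this class cannot be told apart from the AIN93G diet. Diets were therefore compared in liver at ZT 0 to ZT 12, and the time course on the HFD at ZT 0 to ZT 20, over 30 liver libraries in 10 groups of 3. The remaining pair of liver libraries, 1 per diet at ZT 24, gave levels only. The phase named in the labels is light for ZT 0, 4, and 8 and dark for ZT 16, 20, and 24, and at ZT 12 it differs between mice, so phase cannot be told apart from time elsewhere. Among liver libraries, HFD library Y48_3 of ZT 8 stood apart in the relation of level to gene length that is described with the results. At ZT 12, mice of a group also differed in the clock gene Nr1d2, from 6.20 to 162 CPM on AIN93G and 13.8 to 143 CPM on the HFD. At ZT 8 it ran from 142 to 158 and from 155 to 227 CPM. Its bearing on the differences at ZT 12 and on the cosine was not tested. Total counts per library were between 14592481 and 21368409.

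The 10 genes together held 3.22% to 5.92% of all counts in liver (median, 4.58%). Per kilobase of exon, the order of median levels in the 32 liver libraries began with Apoa2 (11991 CPM per kb), Apoe (10146 CPM per kb), and Apoa1 (6275 CPM per kb), followed by Apoc1 (4045 CPM per kb), Apoc3 (2186 CPM per kb), and Apoh (1345 CPM per kb). Apoa5 (497 CPM per kb) and Apob (491 CPM per kb) were next, then Apoa4 (169 CPM per kb) and Mttp (62.4 CPM per kb). The ranges over libraries overlapped for the neighbours Apoa2 and Apoe (7092 to 15348 and 5646 to 13467 CPM per kb), for Apoe and Apoa1, for Apoa1 and Apoc1, for Apoc1 and Apoc3, for Apoc3 and Apoh, for Apoa5 and Apob, and for Apob and Apoa4. They did not overlap for Apoh and Apoa5, nor for Apoa4 and Mttp. The coefficient of variation over liver libraries was lowest for Apoh (10.2%) and Mttp (12.4%) and highest for Apoa4 (36.6%), Apoa1 (33.6%), and Apoc1 (25.7%). The other 5 genes lay between 17.4% and 19.0%. The median was 17.1% over the 481 tested genes whose mean level in liver reached the median CPM of Apoa4, the lowest of the 10 before division by length.

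**Figure D1:**
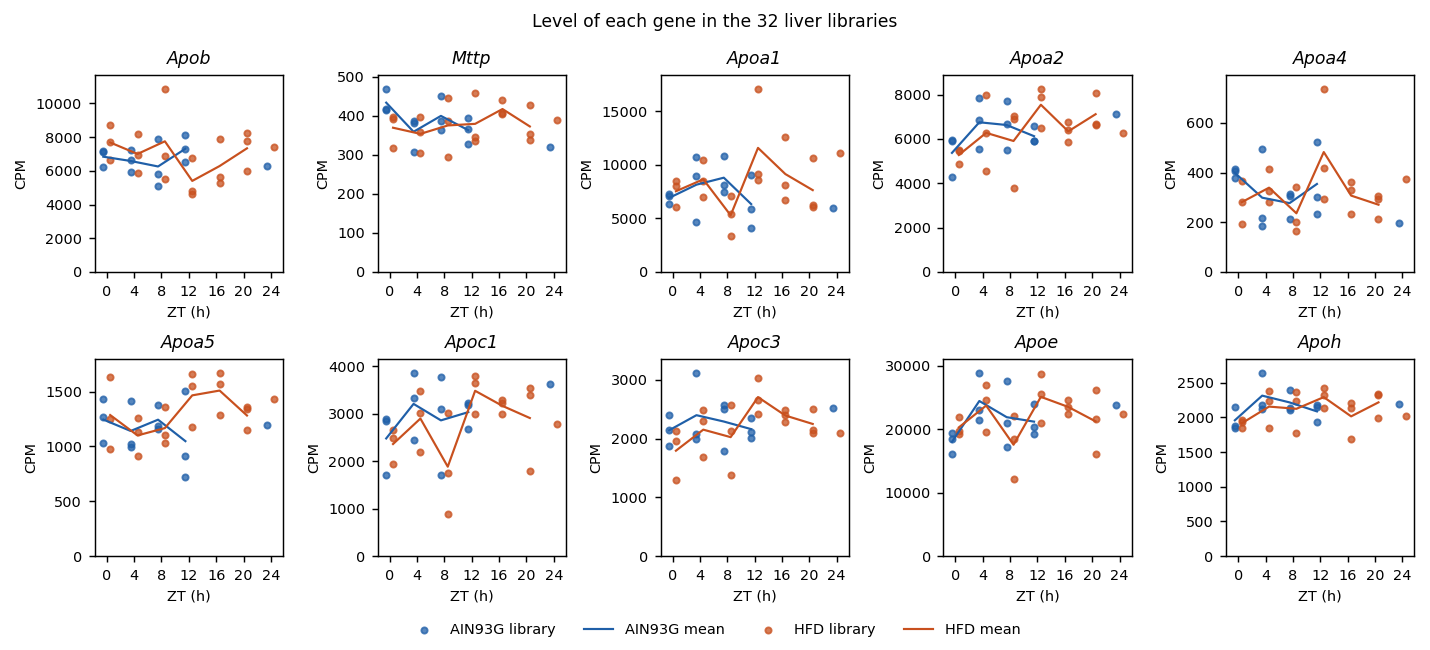
Each panel plots the CPM of 1 gene (vertical axis, from 0) against ZT in hours, with a point for each of the 32 liver libraries, AIN93G in blue and the HFD in orange, and a line through the means of groups of 3. No AIN93G points exist at ZT 16 and ZT 20, where all libraries were adipocyte-rich. At the times that both diets share, their points overlap except for Mttp and Apoa4 at ZT 0, Apoa1 at ZT 8, and Apoc3 at ZT 12 (4 of 40 combinations, beside 7.5% to 13.3% of all genes at a time), and Apoh stays between 1692 and 2636 CPM throughout.

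Of the genes that build the VLDL particle, Apob encodes its structural protein and lies on chromosome 12 (7977648 to 8016835, plus strand, mm10). On AIN93G, its level was 6229, 7108 and 7185 CPM at ZT 0, 5914, 6632 and 7214 CPM at ZT 4, 5095, 5819.8 and 7867 CPM at ZT 8, and 6534, 7283 and 8123 CPM at ZT 12. On the HFD, it was 6622, 7695 and 8737 CPM at ZT 0, 5872, 6970.3 and 8167 CPM at ZT 4, 5512, 6901 and 10848 CPM at ZT 8, and 4610.4, 4823 and 6779 CPM at ZT 12. The diets overlapped at each of these times, and the highest value of all belonged to library Y48_3. Averaged over ZT 0 to ZT 12, the log2 fold change of HFD to AIN93G was 0.038 ± 0.11 (SE), with a 95% interval of -0.19 to 0.27 (adjusted p = 0.959). Without Y48_3, the average was -0.045, and without HFD library Y27_3 of ZT 12 it was -0.011. Later on the HFD, the level was 5305, 5648 and 7908 CPM at ZT 16 and 5969, 7778 and 8266 CPM at ZT 20, again within the range of the earlier times.

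Mttp encodes the large subunit of the transfer protein that moves triacylglycerol onto nascent apolipoprotein B. The gene lies on the minus strand of chromosome 3 (138089854 to 138144968, mm10) and had the lowest level per kilobase of the 10. It was 414, 419 and 468 CPM on AIN93G and 318, 393 and 398 CPM on the HFD at ZT 0, where the groups did not overlap. The log2 fold change there was -0.23 ± 0.15 (SE; adjusted p = 1.000). At ZT 4, ZT 8, and ZT 12 the diets overlapped, and the average difference was -0.066 ± 0.077 with a 95% interval of -0.22 to 0.093. On the HFD, Mttp was 304, 359.7 and 397 CPM at ZT 4 and 406, 407 and 440.0 CPM at ZT 16, a log2 difference of 0.24 ± 0.15 that did not pass the test (adjusted p = 0.503).

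Apoa1 encodes the main protein of HDL and the activator of lecithin-cholesterol acyltransferase. It varied more than most of the genes. At ZT 0 it was 6347, 7095 and 7285 CPM on AIN93G and 6060.1, 8022 and 8516 CPM on the HFD, and at ZT 4 4691, 8999.5 and 10747 CPM and 7014, 8515 and 10411 CPM, with overlap at both times. At ZT 8, it was 7489.9, 8114 and 10789 CPM on AIN93G and 3392, 5410.1 and 7064 CPM on the HFD, and every HFD value lay under every AIN93G value. At ZT 12, it was 4136, 5834 and 9035 CPM on AIN93G and 8569, 9109 and 17057 CPM on the HFD, and the groups overlapped, with the highest value of all 32 liver libraries in Y25_1. The log2 fold change was -0.73 ± 0.34 (SE) at ZT 8 and 0.89 ± 0.34 at ZT 12. Neither passed the edgeR quasi-likelihood test after adjustment over 12023 genes (unadjusted p = 0.0396 and 0.0147, adjusted p = 0.401 and 0.618). Without Y48_3, the change of Apoa1 at ZT 8 was -0.50 (adjusted p = 0.819). At ZT 12 it was 0.50 without Y25_1 (adjusted p = 0.995) and 1.23 without AIN93G library Y1_1 (adjusted p = 0.106). The interaction of diet with time did not pass either (unadjusted p = 0.0219, adjusted p = 0.812). Averaged over ZT 0 to ZT 12, the opposite signs left a log2 fold change of 0.090 ± 0.17, which was -0.18 without ZT 12. Later on the HFD, it was 6701, 8087 and 12618 CPM at ZT 16 and 6024, 6281 and 10604 CPM at ZT 20.

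Apoa2 encodes another main HDL protein and was the highest of the 10 per kilobase. It was 4268, 5889 and 5953 CPM on AIN93G and 4882, 5438 and 5503 CPM on the HFD at ZT 0, and 5886, 5896 and 6585 CPM and 6486, 7892 and 8242 CPM at ZT 12. The gene lies on chromosome 1 (171225054 to 171226379, plus strand, mm10). The diets overlapped at both times, and the average log2 fold change was 0.0047 with a 95% interval of -0.21 to 0.22. The average became -0.099 without ZT 12.

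Apoa5 and Apoa4 lie with Apoa1 and Apoc3 in a cluster of 43340 bases on chromosome 9 (46228580 to 46271919, mm10), where Apoc3 is transcribed from the opposite strand. Apoa1 spans 46228580 to 46230466, Apoc3 46232933 to 46235636, Apoa4 46240696 to 46243459, and Apoa5 46268633 to 46271919. Apoa5 encodes a minor plasma protein that promotes triacylglycerol hydrolysis by lipoprotein lipase. The 250 bases before its start in RefSeq (chr9:46268383-46268632, plus strand, GRCm38.p6) are shown because they hold a CACGTG E-box, the sequence that clock transcription factors of the Clock and Bmal1 type bind, and the time course tests a daily rhythm. Capitals mark CACGTG and a TATAAA element.
Apoa5: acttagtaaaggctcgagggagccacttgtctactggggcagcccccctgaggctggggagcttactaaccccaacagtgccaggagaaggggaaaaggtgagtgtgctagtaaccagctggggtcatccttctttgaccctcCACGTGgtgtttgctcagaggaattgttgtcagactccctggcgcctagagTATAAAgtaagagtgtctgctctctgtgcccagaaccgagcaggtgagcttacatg
CACGTG lies 107 to 102 bases before the start and reads the same on both strands. Of the 32851 RefSeq promoters searched over the same 250 bases, 6.02% hold CACGTG and 12.4% hold TATAAA on either strand. Promoters were given for 8 of the 10 genes, and CACGTG was found in that of Apoa5 alone among them.

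On the HFD, Apoa5 was 914, 1127 and 1259 CPM at ZT 4 and 1288, 1572 and 1667 CPM at ZT 16, and the lowest value at ZT 16 lay above the highest at ZT 4, as was so or reversed for 20.6% of all genes. A 24 h cosine gave it a peak-to-trough range of 0.42 on the log2 scale with the peak at ZT 15.7 (unadjusted p = 0.0388). After adjustment over the 12008 genes tested, it did not pass (adjusted p = 0.165), nor did the difference of ZT 16 from ZT 4, 0.45 ± 0.22 (SE; adjusted p = 0.327). At ZT 12, Apoa5 was 721, 915 and 1507 CPM on AIN93G and 1179, 1554 and 1663 CPM on the HFD, with overlap. The log2 fold change was 0.50 ± 0.22 (SE; unadjusted p = 0.0355, adjusted p = 0.664). It was 0.29 without Y14_1 and 0.85 without Y1_1 (adjusted p = 0.0593), both of AIN93G.

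Apoa4 encodes a protein of intestinal and hepatic particles that takes part in triacylglycerol export. It had the highest coefficient of variation of the 10 over the liver libraries, from 166 CPM in Y48_3 to 736 CPM in HFD library Y27_3 of ZT 12. Its level was 376, 405 and 416 CPM on AIN93G and 195, 283 and 365 CPM on the HFD at ZT 0, where no HFD value reached the lowest AIN93G value. The log2 fold change at ZT 0 was -0.50 ± 0.36 (SE; adjusted p = 1.000). The antisense gene Gm47528 overlaps Apoa4 and was the tested gene whose level followed it most closely (r = 0.69 over 30 libraries). Strand use in the counting is not given in the sources used here, so reads of the pair cannot be told apart.

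Apoc3 and Apoc1 encode small exchangeable proteins, of which the former inhibits lipoprotein lipase and particle uptake and the latter inhibits particle uptake and lipid transfer. Apoc3 was 1869, 2148 and 2406 CPM on AIN93G and 1296, 1964 and 2121 CPM on the HFD at ZT 0, and 2093, 2148 and 2506 CPM on the HFD at ZT 20. Its diet groups overlapped at ZT 0, 4, and 8 and were separate at ZT 12, with 2011, 2118 and 2354 CPM on AIN93G and 2423, 2657 and 3037 CPM on the HFD (log2 fold change, 0.34 ± 0.22; adjusted p = 0.718). With the slope of log2 level on gene length in each library as a covariate, that difference was 0.038. Apoc1 was 1699.5, 3102 and 3785 CPM on AIN93G and 893, 1749 and 3012 CPM on the HFD at ZT 8. Its lowest value belonged to Y48_3 and its average difference was -0.15 ± 0.16, with a 95% interval of -0.49 to 0.19. Without 1 library at a time it ran from -0.28 without Y41_2 to -0.068 without Y48_3.

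Apoe encodes the ligand through which remnant particles reach receptors of the LDL receptor family, and it is made by hepatocytes, macrophages, and adipocytes. The gene lies on the minus strand of chromosome 7 (19696109 to 19699188, mm10), 3448 bases from Apoc1 (19689481 to 19692660). It was the most abundant of the 10 in CPM. The level was 16103, 18424 and 19415 CPM on AIN93G and 19182, 19719.5 and 21870.2 CPM on the HFD at ZT 0, and 17136, 20955 and 27514 CPM and 12071, 18499.9 and 22020.4 CPM at ZT 8. The diets overlapped at both times, and the lowest value was again that of Y48_3. The average log2 fold change was 0.018 ± 0.10 with a 95% interval of -0.20 to 0.23. Apoh encodes beta-2 glycoprotein I, a phospholipid-binding plasma protein that also acts in coagulation. It differed least between libraries, and its average log2 fold change was -0.010 with a 95% interval of -0.15 to 0.13, the narrowest of the 10. Prkca, on the opposite strand, overlaps Apoh on chromosome 11 (108343354 to 108414396, mm10), as Trmt10a overlaps Mttp, and the mean count of no overlapping gene exceeded 218.

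Counted over the set, no gene passed an adjusted p under 0.05 between the diets. The comparisons at ZT 0, ZT 4, and ZT 12 called 0 of the 10 genes and 0 of 12023 (0%), with 480, 302, and 875 genes at an unadjusted p under 0.05. Among these, 0, 0, and 2 were of the 10 (Apoa1 and Apoa5), beside 7.28% of all genes at ZT 12. DESeq2 called 13, 0, and 3 genes there. At ZT 8, the test called 0 of the 10 and 2 of 12023 genes (0.0166%), while an unadjusted p under 0.05 was found for 1 of the 10 (Apoa1) and 11.7% of all genes. Averaged over ZT 0 to ZT 12, 0 of the 10 and 12 genes in all (0.0998%) were called, and the differences of the 10 ran from -0.15 (Apoc1) to 0.10 (Apoa5, 0.042 without Y48_1 to 0.19 without Y1_1) with a median of -0.0029, beside -0.0019 over all genes. The interaction of diet with time called 0 of the 10 and 0 genes in all (0%), with 728 at an unadjusted p under 0.05 and 5 called by DESeq2. DESeq2 called none of the 10 in any liver comparison. The 3 values of each diet did not overlap in 4 of the 40 combinations of gene and time. These were 2 of the 10 genes at ZT 0 (beside 13.3% of all genes), 0 at ZT 4 (7.5%), 1 at ZT 8 (13%), and 1 at ZT 12 (10.2%).

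**Figure D2:**
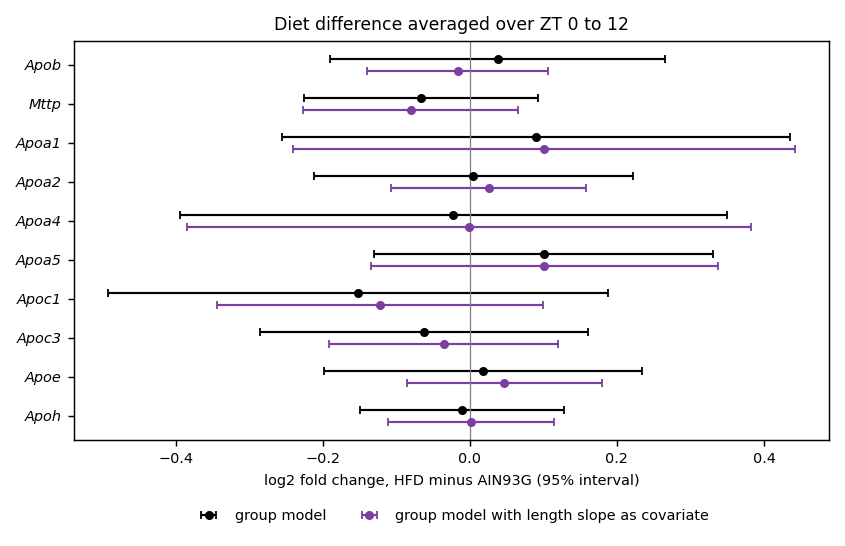
The log2 fold change of HFD to AIN93G averaged over ZT 0 to ZT 12 (horizontal axis) is plotted for each of the 10 genes with its 95% interval, in black from the model of 10 groups and in purple with the length slope of each library as a covariate. All 20 intervals include 0, and the covariate narrows those of Apob, Apoa2, Apoc1, Apoc3, Apoe, Apoh, Mttp, and, slightly, Apoa1, and widens those of Apoa4 and Apoa5.

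Time of day was tested next. On AIN93G, 0 of the 10 genes and 0.823% of all 12023 changed between ZT 0 and ZT 12, and the median fitted range of the 10 was 0.30 (log2), beside 0.32 over all genes. On the HFD from ZT 0 to ZT 20, 0 of the 10 and 5.27% of all genes changed, and the median range was 0.52 for the 10 and 0.52 for all genes. The highest fitted ranges were 1.13 for Apoa1 (adjusted p = 0.221) and 1.03 for Apoa4 (adjusted p = 0.275), and the lowest was 0.24 for Mttp (adjusted p = 0.838). With 1 library left out at a time, that of Apoa1 ran from 0.77 (without Y25_1) to 1.40 (without Y38_3). That of Apoa4 ran from 0.60 (without Y27_3) to 1.40 (without Y38_3). Without a filter on low counts, Apoa1 and Apoa4 passed (adjusted p = 0.0173 and 0.00642), beside 5.75% of 30203 genes. Between ZT 16 and ZT 4, 0 of the 10 and 1.67% of all genes differed, and between ZT 20 and ZT 8, 0 of the 10 and 2.37%. The log2 differences of ZT 16 from ZT 4 ran from -0.16 (Apob) to 0.45 (Apoa5), and those of ZT 20 from ZT 8 ran from -0.090 (Apob) to 0.63 (Apoc1). The latter was 0.29 for Apoc1 and 0.24 for Apob without Y48_3. The 24 h cosine called 0 of the 10 and 8.52% of the 12008 genes, and DESeq2 called none of the 10 in these tests. An unadjusted p under 0.05 was found for 1 of the 10 under the cosine (Apoa5), beside 26.5% of all genes. It was found for 0 of the 10 over the HFD time course (25.2% of all genes), between ZT 16 and ZT 4 (15.7%), and between ZT 20 and ZT 8 (17.1%). Fitted ranges under the cosine were between 0.13 (Apoh) and 0.48 (Apoa4), and peaks fell between ZT 11.5 and ZT 15.9 for every gene but Apob, whose peak was at ZT 1.53. These peak times come from curves that did not pass the test. The cosine range of Apoa4 was 0.084 without Y27_3 and 0.62 without Y44_3.

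Other genes of the pathway were counted in the same test of time on the HFD, which called 5.27% of all genes. Of 28 genes of VLDL assembly and export, 2 changed. Ces1d, a hepatic carboxylesterase that mobilises stored triacylglycerol, rose from 439 ± 84.7 CPM (SD, n = 3) at ZT 4 to 1692 ± 401 CPM at ZT 16, a log2 difference of 1.94 (adjusted p = 0.00148). Soat2, which esterifies cholesterol for secretion, had a fitted range of 0.74 (adjusted p = 0.0329). Of 13 genes of receptors and clearance, 2 changed. Among them Sort1, which encodes the sorting receptor sortilin that binds apolipoprotein B, fell from 27.7 ± 3.10 CPM at ZT 4 to 6.42 ± 1.34 CPM at ZT 16 (log2 difference, -2.11; adjusted p = 0.000318). Of 16 other apolipoprotein genes tested, Apool, a mitochondrial protein despite its name, changed (fitted range, 0.62), and of 11 genes of plasma lipid transfer and HDL remodelling, Angptl8 did (fitted range, 2.62). Of 27 listed transcriptional regulators, 5 changed, among them Nr1d1, the clock gene for Rev-erb alpha (fitted range, 5.49; adjusted p = 7.13e-06), Nr1d2 (fitted range, 3.70), and Nr5a2 (fitted range, 0.86). None of these 5 lists had a gene called for the average diet difference, beside 0.0998% of all genes, and their median log2 fold changes were between -0.04 and 0.14. The highest median was that of the other apolipoproteins, of which 6 of 16 had an unadjusted p under 0.05 in the edgeR test. Such a p was found for 999 of all 12023 genes. It was found for 3 of 28 assembly, 1 of 13 receptor, 1 of 11 lipid transfer, and 4 of 27 regulator genes.

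Across liver libraries, the levels of several of the 10 genes followed gene length. For each library, the slope of log2 CPM, as deviation from the mean of all libraries, on log2 gene length was fitted over 12013 genes without the 10. The slope ran from -0.129 in HFD library Y39_1 of ZT 12 to 0.174 in Y48_3, and a higher slope means that longer genes were relatively higher. Apob, with 13934 bases of exon the longest of the 10, rose with the slope (Pearson r = 0.91, Spearman rho = 0.87, n = 30, permutation p = 1.00e-05 for each, the smallest that 100000 permutations can give, adjusted p = 2.00e-05 and 2.50e-05 over the 10 genes). Apoe fell with it (r = -0.87, rho = -0.82), as did Apoa2 (r = -0.83, rho = -0.76), Apoc1 (r = -0.82, rho = -0.74), and Apoc3 (r = -0.80, rho = -0.77), each with an adjusted permutation p of at most 4.00e-05. Apoh (r = -0.66, rho = -0.62, adjusted permutation p = 0.000167 and 0.000750) and Apoa1 (r = -0.51, rho = -0.38, adjusted permutation p = 0.00717 and 0.0479) followed less closely. Mttp (r = 0.29, rho = 0.39, adjusted permutation p = 0.129 and 0.0458), Apoa4 (r = -0.30, rho = -0.23, adjusted permutation p = 0.129 and 0.247), and Apoa5 (r = -0.13, rho = -0.14, adjusted permutation p = 0.492 and 0.458) did not pass by r. Mttp alone among these passed by rho. The slope was fitted to the other 12013 genes, so many of them follow it by construction. Their median r was -0.27 in the 2999 shortest (at most 2666 bases) and 0.31 in the 3005 longest. An r at least as far from 0 as that of Apoa1 was found in 20.4% of them, as that of Apoh in 8.8%, of Apoc3 in 2.14%, of Apoc1 in 1.74%, of Apoa2 in 1.19%, of Apoe in 0.366%, and of Apob in 0.0333%.

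Without Y48_3 and Y39_1, the libraries farthest from the median slope, r was 0.86 for Apob, -0.83 for Apoe, -0.77 for Apoa2, -0.71 for Apoc1, -0.76 for Apoc3, -0.59 for Apoh, and -0.35 for Apoa1. Within the 20 libraries labelled light, r was 0.94 for Apob and -0.90 for Apoe, and within the 10 labelled dark 0.85 and -0.79. For Apoc1 and Apoh the dark libraries gave weaker values (-0.49 and -0.20) than the light ones (-0.91 and -0.81), while for Apoa1 and Apoa5 the dark ones gave -0.80 and -0.48 against -0.41 and 0.00025, and these differences were not tested. The light libraries include Y48_3 and Y39_1, while slopes of the dark ones ran only from -0.0713 (Y25_1) to 0.0529 (Y25_3). Of the dark ones, 2 were of AIN93G, both from ZT 12. As deviations from the group means, which sets diet and time aside, r was 0.91 for Apob, -0.89 for Apoe, -0.87 for Apoa2, -0.81 for Apoc1, -0.78 for Apoc3, -0.69 for Apoh, and 0.44 for Mttp, while it was -0.29 for Apoa1, -0.15 for Apoa4, and 0.0081 for Apoa5. The cause of the slope was not tested. With the slope as a covariate, an alternative chosen after the values had been seen, the SE of the average diet difference fell from 0.11 to 0.059 for Apob and from 0.10 to 0.064 for Apoe. The differences were then -0.017 (95% interval, -0.14 to 0.11) and 0.047 (95% interval, -0.086 to 0.18), with 0.026 for Apoa2 and -0.036 for Apoc3, and none of the 10 genes was called.

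**Figure D3:**
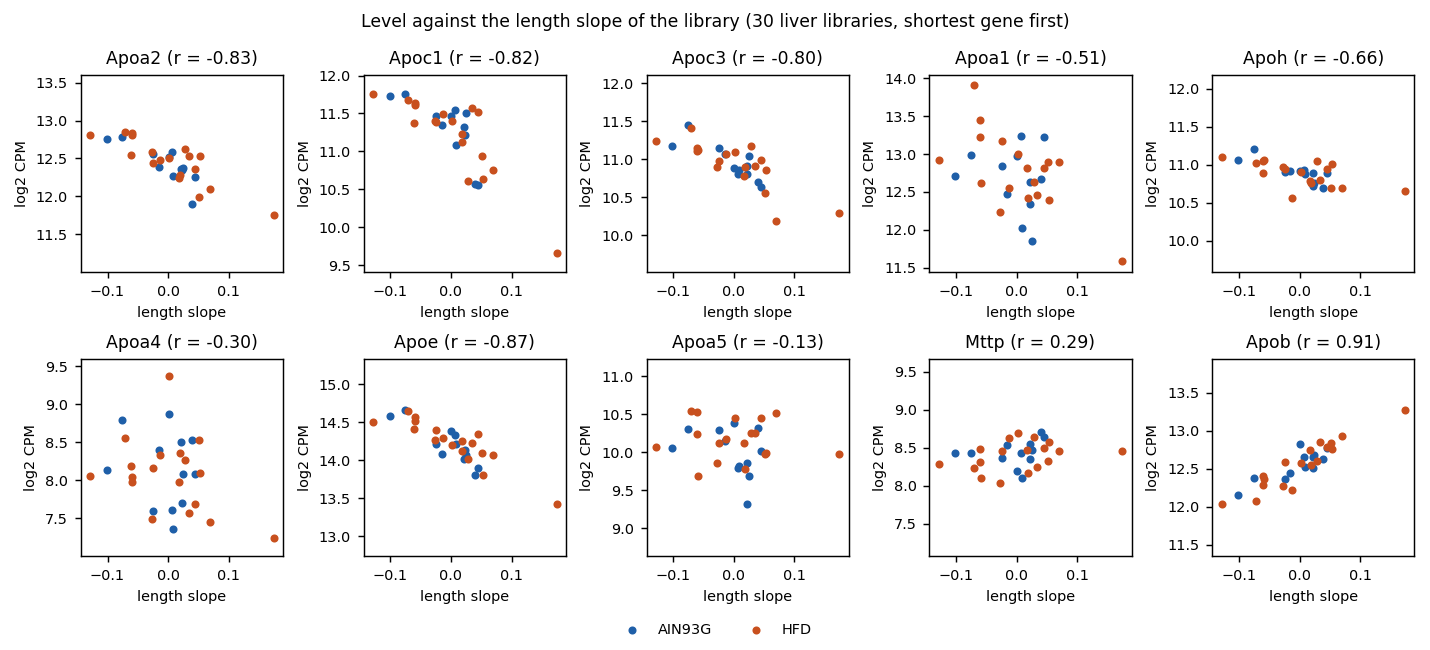
Each panel plots the log2 CPM of 1 gene (vertical axis, spanning the same width in every panel) against the length slope of the library, with 1 point for each of the 30 liver libraries, AIN93G in blue and the HFD in orange, and panels ordered from the shortest gene (Apoa2) to the longest (Apob). Apob rises with the slope while Apoa2, Apoc1, Apoc3, and Apoe fall, and the point at the far right of each panel is Y48_3.

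Levels of the 10 genes were then compared in pairs. Of the 45 pairs, 20 passed an adjusted permutation p under 0.05 over 30 libraries by Pearson r, and 32 had a positive r. Of all pairs of the 12013 other tested genes, 11.4% had an r at least as far from 0 as the weakest of the 20, and 49.8% a positive r. The genes of all these pairs share libraries and the length slope. The closest pair was Apoe and Apoc1, neighbours on chromosome 7 (r = 0.89, rho = 0.85, adjusted permutation p = 7.50e-05 and 9.00e-05). Without the 2 libraries farthest from the median of the gene first in the alphabet, r was 0.83, and it was 0.92 within light and 0.81 within dark libraries, and 0.89 as deviations from the group means. Apoa2 and Apoc3, on different chromosomes, were nearly as close (r = 0.84, rho = 0.82, adjusted permutation p = 7.50e-05 and 9.00e-05), with r = 0.81 without 2 libraries, 0.85 within light, 0.65 within dark, and 0.83 as deviations from the group means. Apob was negative with Apoc3 (r = -0.78, rho = -0.73, adjusted permutation p = 7.50e-05 and 0.000193), with r = -0.71 without 2 libraries, -0.83 within light, -0.86 within dark, and -0.73 as deviations from the group means.

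Once the length slope had been regressed out of each gene, r was -0.20 for Apob and Apoc3 and 0.51 for Apoa2 and Apoc3, while Apob turned from -0.71 to 0.40 with Apoe, from -0.51 to 0.30 with Apoh, from -0.69 to 0.23 with Apoc1, and from -0.74 to 0.090 with Apoa2. Pairs with r beyond 0.7 in either direction numbered 10 before and 0 after. Apoe and Apoc1 kept r = 0.64. Apoa1 and Apoa5, both in the chromosome 9 cluster, had r = 0.56 before (rho = 0.58, adjusted permutation p = 0.00372 and 0.00379) and 0.58 after, with 0.54 without 2 libraries, 0.34 within light, 0.85 within dark, and 0.53 as deviations from the group means. The 6 pairs of that cluster had r between 0.17 and 0.56, and Apoc3 was not close to its neighbour Apoa1 (r = 0.35 before and -0.11 after).

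**Figure D4:**
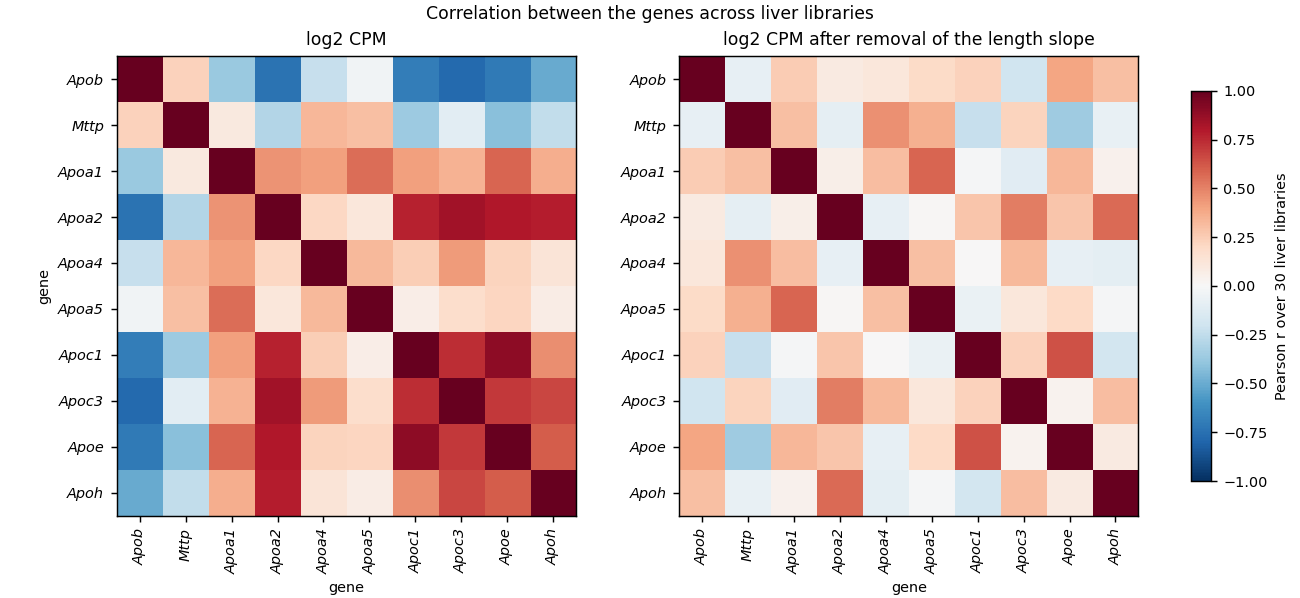
Both panels show Pearson r for each pair of the 10 genes over the 30 liver libraries, from -1 (blue) to 1 (red), on log2 CPM at the left and after the length slope was regressed out at the right. The blue rows and columns of Apob at the left, down to r = -0.78, are mostly pale red at the right (0.40 with Apoe), where of the pairs negative before that with Apoc3 alone stays negative, and the strongest pair is Apoe with Apoc1 at 0.64.

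The tested genes whose log2 CPM followed each of the 10 most closely over the 30 libraries are given as a description. Nearest to Apoc1 were the oxidative phosphorylation genes Ndufa1 (r = 0.96), Atp5e (0.95), and Cox5b (0.95), and nearest to Apoc3 were Ndufb9 (0.89), Uqcr10 (0.88), and Cox6b1 (0.87). Apoa2 was nearest to Mettl26 (0.91), Cox4i1 (0.89), and Atp5h (0.88), and Apoe to Stard10 (0.91), Vamp8 (0.90), and Atp5d (0.90). For Apob, they were the long genes Akap9 (0.91), Trip12 (0.90), and Bod1l (0.89), with 21350, 16601, and 11995 bases of exon. Apoa1 was nearest to Serpina11 (0.89), Ppm1m (0.80), and Imp3 (0.80), and Apoa5 to Fitm2 (0.84), Ctif (0.78), and Smad9 (0.77). Apoh was nearest to Gng5 (0.79), Apoa2 (0.79), and Bcap31 (0.78). Apoa4, with Gm47528 (0.69), Cyp2d40 (0.69), and Ebna1bp2 (0.66), and Mttp, with Ercc6l2 (0.64), Gdap2 (0.63), and Mmgt1 (0.63), had the weakest neighbours. These libraries share the length slope described above, and its part in these values was not tested.

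In the 10 adipocyte-rich libraries, the level of each gene was set against its mean in the 6 HFD liver libraries of ZT 16 and ZT 20, as a description with no test, because Alb chose the libraries. Apoe had the highest share left. It was 5.53, 5.59 and 7.27% of the liver mean at ZT 16, 4.71, 6.18 and 6.44% at ZT 20, and 3.49 and 6.83% at ZT 24 on AIN93G, and 6.81 and 8.42% at ZT 24 on the HFD, from 15343 to 44375 counts per library. Alb was left at 0.0118% to 0.0672% in the same libraries (median, 0.0366%) and is no yardstick, since it chose them. The other 29 hepatocyte markers had a median of 0.0133%, and 27 of them had a lower median share than Apoe. In bulk RNA, fewer cells of a type and less RNA per cell cannot be told apart.

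Mttp and Apoc1 came next. Mttp was left at 0.910% to 2.88% (median, 1.80%; 89 to 238 counts). Apoc1 was left at 0.757% to 2.62% (median, 0.940%; 519 to 1877 counts), and 26 of the 29 markers had a lower median share than either gene. Scaled by library size alone, the medians were 10.1% for Apoe, 3.01% for Mttp, and 1.62% for Apoc1, with the same order. The other 7 genes had medians of 0.0504% for Apoc3 (12 to 82 counts), 0.0206% for Apoa4, 0.0151% for Apoa2, 0.0134% for Apoh, 0.00995% for Apob, 0.00718% for Apoa1, and 0.00406% for Apoa5. Of the 29 markers, 20 were lower than Apoc3, 15 lower than Apoa2, 9 lower than Apob, and 1 lower than Apoa5. Apoa4 and Apoa5 were at or under 3 counts in 9 and 8 of the 10 libraries, a limit that covers counting error only. Among the markers, 3 exceeded 1%, namely Pck1 (52.6%), Cyp2e1 (9.31%), and Trf (4.03%).

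Markers of other cell types in these libraries are given beside this result, and their part in it was not tested. The 20 adipocyte markers summed to 20011 to 37981 CPM in the adipocyte-rich libraries and 849.7 to 2918 CPM in liver. Most of the liver sum came from Car3 (mean, 1563 CPM), and the next marker there was Lpl (37.0 CPM). The 12 macrophage and Kupffer cell markers summed to 323 to 1095 CPM and 542 to 1566 CPM. The pair of most abundant markers in the adipocyte-rich libraries was Car3 and Lpl for adipocytes, Lyz2 and C1qa for macrophages, Col3a1 and Col1a1 for stellate cells and fibroblasts, and Slc5a1 and Vil1 for enterocytes. It was Ptprb and Pecam1 for endothelium, Krt19 and Epcam for cholangiocytes, Krt8 and Krt18 for mammary epithelium, and Ptprc and Cd79a for lymphocytes. Of the 12 macrophage and Kupffer cell markers, 6 had a higher median in the adipocyte-rich libraries and 6 a lower one. Lyz2 was 45.6 to 133 CPM in liver and 112 to 485 CPM in the adipocyte-rich libraries, while Clec4f, which marks Kupffer cells, was 132 to 275 CPM and at most 0.170 CPM. Between these lay Timd4, another Kupffer cell marker, with medians of 10.2 CPM in liver and 10.1 CPM in the adipocyte-rich libraries, and the general macrophage marker Csf1r, with 63.7 and 77.9 CPM. The 10 enterocyte markers, from a tissue where Apob, Mttp, Apoa1, and Apoa4 are also active, summed to at most 4.96 CPM in the adipocyte-rich libraries, with Alpi, Mep1a, and Mep1b at 0 counts. In liver they summed to 50.9 to 164 CPM, most of it from Fabp2 (mean, 106 CPM). The 10 stellate cell and fibroblast markers summed to 2603 to 6126 CPM against 315 to 496 CPM in liver, the 8 sinusoidal endothelial markers to 192 to 372 CPM against 268 to 438 CPM, and the 10 lymphocyte markers to 16.5 to 869.7 CPM against 15.7 to 37.1 CPM. The 6 cholangiocyte markers summed to 55.4 to 448 CPM against 33.1 to 67.9 CPM, and the 10 mammary epithelial markers to 80.7 to 690.3 CPM against 223 to 406 CPM. Krt8 and Krt18 were the highest mammary markers in liver (means, 178 and 129 CPM), where Csn2 and Lalba had 0 counts. Over the 7 mammary markers tested at ZT 16, the median log2 difference of HFD liver from AIN93G adipocyte-rich libraries was -5.39. Sums of this list therefore do not show how most of its members differed.

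**Figure D5:**
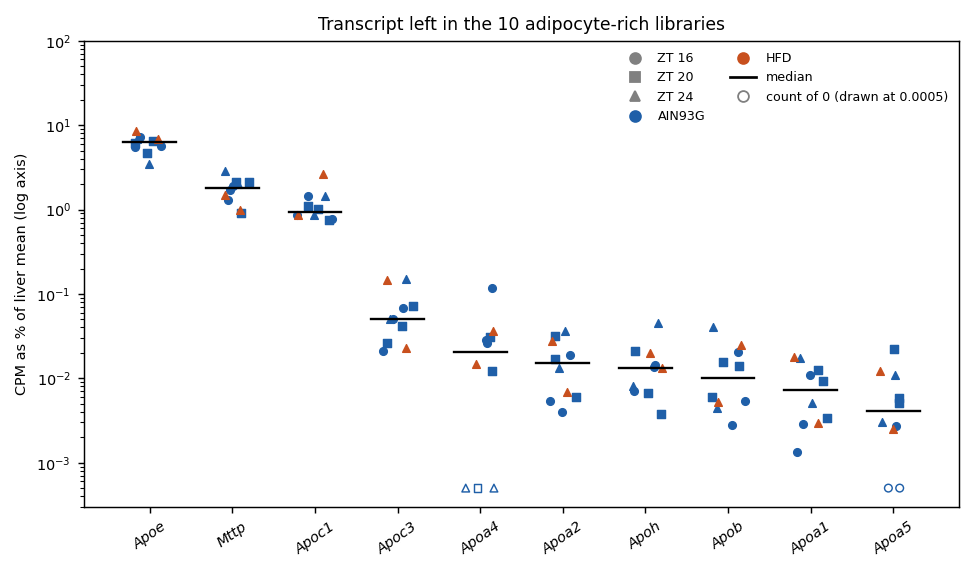
The CPM of each gene in each of the 10 adipocyte-rich libraries is plotted as a percentage of its mean in 6 HFD liver libraries (log axis), with AIN93G in blue, the HFD in orange, the symbol giving the ZT, a bar at the median, and open symbols for counts of 0. Apoe, Mttp, and Apoc1 stand between 0.757% and 8.42% in every library, while the other 7 genes lie at or below 0.151%.

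The promoter windows of Apoe and Mttp, the genes with the highest shares left, are shown beside that of Apob, whose median share was 0.00995%. Each is the 250 bases before a RefSeq start (GRCm38.p6), for Apoe at chr7:19699189-19699438 on the minus strand, for Mttp at chr3:138143419-138143668 on the minus strand, and for Apob at chr12:7977427-7977676 on the plus strand. Capitals mark TATAAA, and no E-box (CACGTG), GC box (GGGCGG), or CAAAGTTCA, an element of the HNF4 type, occurs in these windows on either strand.
Apoe: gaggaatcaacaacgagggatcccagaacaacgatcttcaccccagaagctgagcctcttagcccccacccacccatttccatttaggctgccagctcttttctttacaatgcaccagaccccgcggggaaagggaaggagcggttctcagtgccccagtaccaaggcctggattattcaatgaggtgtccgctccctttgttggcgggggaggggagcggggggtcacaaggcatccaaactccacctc
Mttp: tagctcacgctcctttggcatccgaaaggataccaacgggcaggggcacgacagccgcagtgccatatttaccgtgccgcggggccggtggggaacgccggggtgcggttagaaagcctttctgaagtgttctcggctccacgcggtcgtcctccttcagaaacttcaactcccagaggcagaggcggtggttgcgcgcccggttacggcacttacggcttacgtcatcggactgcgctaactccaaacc
Apob: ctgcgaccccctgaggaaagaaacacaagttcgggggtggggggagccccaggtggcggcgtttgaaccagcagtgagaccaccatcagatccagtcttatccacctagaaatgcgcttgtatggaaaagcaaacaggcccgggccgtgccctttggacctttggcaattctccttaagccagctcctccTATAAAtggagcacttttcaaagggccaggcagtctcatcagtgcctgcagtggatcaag
TATAAA lies 60 to 55 bases before the start of Apob. Of all 32851 promoters over the same window, 32.7% hold GGGCGG and 0.335% hold CAAAGTTCA. The window of Mttp lies inside the span that the count table gives for this gene. Another RefSeq start of Apoe, further into the gene, has TATAAA in its window. Among the 8 genes with a promoter, CAAAGTTCA was found in that of Apoa4. TATAAA was found in a window of Apoa2, Apoa5, Apob, and Apoe and in none of Apoa1, Apoa4, Apoh, and Mttp, so it did not follow the share left.

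Finally, the labelled diets were compared at ZT 16 and ZT 20, where every AIN93G library was adipocyte-rich and every HFD library liver, so that diet and class cannot be told apart. Hepatocyte genes pass the count filter through the liver libraries, and the class fixes their direction, so the values are a description with no test. All 10 genes were higher in the HFD libraries at ZT 16 (27% of 14082 genes were called higher there) and at ZT 20 (28.1% of 13697 genes), and nothing is read from these counts. At ZT 16, Apoe was 1369.5 ± 221 CPM (SD, n = 3) in the AIN93G libraries and 23481 ± 1094 CPM in the HFD libraries, a fold of 17.1, the smallest of the 10. The fold was 64.7 for Mttp and 101 for Apoc1, and 1851 or more for the other genes. The value of 1851 was that of Apoa4 and rests on 2 to 9 counts per AIN93G library. Apoa5, with at most 1 count in each AIN93G library, was at least 12382-fold higher against a floor of 3 counts per library. At ZT 20, the folds were 16.4 for Apoe, 54.7 for Mttp, and 100.2 for Apoc1. At ZT 24, the liver libraries Y8_2 (AIN93G) and Y33_2 (HFD) had 6304 and 7427 CPM of Apob, 5932 and 11091 CPM of Apoa1, and 23843 and 22410.4 CPM of Apoe, with 1 library per diet and no test.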

How the data were processed

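Poly(A) RNA from 42 libraries labelled mouse liver was sequenced, and the authors deposited 1 table of raw read counts per gene with names and positions on mm10. The submitters' processing notes name fastp, STAR, HTSeq 0.6.1, DESeq, and STAR-Fusion, whose roles and strand setting are not given in the sources used here. Every column of values was matched to a library by its title (0 unmatched).

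A gene was kept where its counts averaged 25 or more. Tests were quasi-likelihood F-tests in edgeR 4.0.16 (limma 3.58.1, R 4.3.3), with TMM normalization, a model of 10 groups of 3 liver libraries, and Benjamini-Hochberg adjustment at 0.05. Time on the HFD was tested by group and by a 24 h cosine. The labelled diets at ZT 16 and ZT 20 were fitted apart. Levels are TMM-scaled CPM computed over 42 libraries, per kilobase of exon where genes were compared. Log2 CPM for correlations used a prior count of 2. Correlations were tested with 100000 permutations (two-sided). Among 42 pairs of replicates, the lowest chi-square per degree of freedom was 14.5, so none was taken as one library deposited again. Count depth is the library total, and floors of 3 counts cover counting error only, since reads carried no molecular identifiers. Promoters are from RefSeq (GRCm38.p6), and 8 of 10 genes matched. Scripts were tested on simulated data. Alternatives were DESeq2 1.42.0, library size scaling, no count filter, fewer libraries or times, each library left out, a length covariate, and limma-voom without and with the first number of the library title as a replicate block (the last 2 kinds added after seeing the data). Named were the 10 genes, up to 4 called genes per other list and comparison, the 3 nearest genes to each of the 10, and abundant markers. Clec4f, Timd4, Csf1r, the hepatocyte markers above 1%, and the zero markers were named after their values were seen. The genes and lists were chosen with earlier results of these data known. Some genes of the other lists are counted but not reported here by name.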

Additional observations from a re-analysis of the deposited data

Results flagged for a closer look

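The 4 adipocyte-rich libraries of ZT 24, 2 per diet, entered no test, and their lowest counts of 8 of the 10 genes were above 3. The lowest count was 15343 for Apoe, 519 for Apoc1, and 109 for Mttp. It was 15 for Apoc3, 13 for Apoa2, 7 for Apoa1, 7 for Apob, and 4 for Apoh. No control library of this kind exists in the series, and the source of these reads was not tested.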

How the results depend on the processing

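Of 1789 values recomputed for the 10 genes, 1716 kept direction and side of the threshold, 2 newly passed, and 71 changed sign. The counts over all genes moved more. The cause was not tested, except that some settings hold fewer libraries by construction. Without a filter on low counts, the calls for the diet numbered 51 (ZT 0), 19 (ZT 4), 183 (ZT 8), and 78 (ZT 12), with 232 averaged and 93 for the interaction. Those for time were 872 on AIN93G, 1738 on the HFD, 473 for ZT 16 against ZT 4, and 641 for ZT 20 against ZT 8. In that setting Apoa1 and Apoa4 passed for time on the HFD (adjusted p = 0.0173 and 0.00642), and the average of Apoa2 was -0.00078. DESeq2 called 13 (ZT 0), 30 (ZT 8), 3 (ZT 12), 83 averaged, 5 for the interaction, 276 and 1658 for time on AIN93G and the HFD, 425 and 570 for the differences of ZT 16 and ZT 20, and 1693 for the cosine. The 6 libraries of 1 time alone gave 9 (ZT 0) and 0 (ZT 8), and the 24 of ZT 0 to ZT 12 gave 22 averaged. Library size alone gave 22 averaged, an Apoh average of 0.00096, an Apoa2 difference of ZT 16 from ZT 4 of -0.022, and a median over the 10 genes of 0.0300% left against 0.0178%. Without ZT 12, 64 were called averaged, 437 for time on AIN93G, and 1047 on the HFD, and the averages were -0.18 for Apoa1, -0.099 for Apoa2, -0.033 for Apoa5, and -0.064 for Apoe. The length covariate gave 1 (ZT 8), 35 averaged, 363 for ZT 16 against ZT 4, and 1765 for the cosine. With it the averages were -0.017 for Apob and 0.0019 for Apoh, ZT 16 against ZT 4 was 0.0082 for Apoe, and ZT 20 against ZT 8 was 0.17 for Apob, -0.010 for Apoc3, -0.021 for Apoh, and 0.053 for Mttp.

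Leaving out each library in turn gave 0 to 30 calls at ZT 8, 0 to 107 at ZT 12, 5 to 183 averaged, 0 to 2 for the interaction, 12 to 282 for time on AIN93G, 330 to 1176 for time on the HFD, 59 to 149 for ZT 16 against ZT 4, 81 to 240 for ZT 20 against ZT 8, and 672 to 1710 for the cosine. The highest counts came without Y1_1 for ZT 12, for the average, and for time on AIN93G, without Y39_1 for time on the HFD and the cosine, and without Y41_2 for ZT 8, and the lowest for time on the HFD without Y48_3. Signs changed among these omissions for the average in Apoa1 (-0.0061 to 0.18), Apoa2 (-0.050 to 0.063), Apoa4 (-0.13 to 0.12), Apob (-0.045 to 0.087), Apoe (-0.031 to 0.069), and Apoh (-0.031 to 0.017). They changed for ZT 16 against ZT 4 in Apoa1 (-0.22 to 0.25), Apoa2 (-0.17 to 0.23), Apoa4 (-0.28 to 0.026), Apoc1 (-0.042 to 0.29), Apoe (-0.14 to 0.096), and Apoh (-0.20 to 0.0068), and for ZT 20 against ZT 8 in Apoa4 (-0.0042 to 0.56), Apob (-0.29 to 0.24), Apoc3 (-0.060 to 0.35), Apoh (-0.054 to 0.14), and Mttp (-0.17 to 0.12). None of these values was called.

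Replicate numbers here follow accession order, but the library titles start with a number that 13 of the 30 libraries share with a library of another time on the same diet (6 numbers, 8 pairs), and the labels do not say what it marks. Deviations from the group means correlated between -0.30 and 0.24 over genes in these pairs, over 0.1 in 1. An alternative chosen after seeing the data used limma-voom without and with this number as a replicate block (estimated correlation, 0.016). It called 4 and 4 genes averaged and 17 and 20 for time on AIN93G, gave an Apoa2 average of -0.0078 and -0.0058, and called 0 of the 10 genes with the block. The adipocyte-rich libraries leave no comparison of the diets in liver at ZT 16 or ZT 20.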
